A study of Callithrix jacchus with 3 samples.

Results

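The mitochondrial ribosomal protein genes are those whose symbols begin with MRPL, for the large subunit of the mitochondrial ribosome, or MRPS, for the small subunit, followed by a number. They were read from RNA-seq of wild-type testis of the adult common marmoset (Callithrix jacchus), in a series that also holds total small RNA and small RNA recovered with the PIWI protein MARWI, which are not used here. Per the labels the RNA-seq has 2 replicates, at ages of 41 and 51 months. The deposited table holds 1 column of RPKM values for both, so each level below is a single value with no replicate error and no comparison was tested. RPKM is a read count scaled to transcript length and to the mapped reads of the library. Levels of genes of different length can therefore be set side by side, though how well this holds for very short entries was not tested. The number of reads behind a level is unknown. Values of all transcript entries of a symbol were summed. By this rule 49 symbols were members, 33 of the large and 16 of the small subunit, among 12177 named protein-coding symbols. RefSeq names 76 protein-coding marmoset genes in this way, 48 MRPL and 28 MRPS. The other 27 had no entry under such a symbol and were not analysed here. The table lists values above 0 alone, but a missing symbol need not mean a level of 0. Of the protein-coding entries, 934 had LOC names that stayed unresolved and 1303 had no name, and others carry names that are not standard symbols.

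Mitochondria keep their own ribosomes, which make the few proteins encoded in mitochondrial DNA, all of them subunits of the respiratory chain and of ATP synthase. The ribosomal RNAs come from mitochondrial DNA, whereas every ribosomal protein is encoded in the nucleus, made in the cytosol and imported. Some of these proteins descend from those of the bacterial ribosome, and others were added during the evolution of mitochondria. In the testis, mitochondria change shape through meiosis and are wound around the sperm tail as the midpiece. Roles given below for single proteins are those known from human and other mammalian mitochondrial ribosomes.

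The testis origin of the column was checked on 10 germ cell genes. PRM1, a protamine of sperm chromatin, stood at 7177 RPKM, TNP1, a transition protein, at 1678 RPKM and the germ cell RNA helicase DDX4 at 26.96 RPKM, and all 5 of the 10 with an entry were above 10 RPKM. In whole testis the level of a gene mixes the RNA per cell with the share of each cell type, and these cannot be told apart.

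Mitochondrial ribosomal protein genes were expressed at moderate levels in the testis. Their median was 8.94 RPKM, with quartiles at 5.48 and 15.8 RPKM, against a median of 2.44 RPKM over all named protein-coding symbols. A level of 1 RPKM or more was reached by 46 of the 49 members (93.9%), where 63.9% of all symbols reached it. A level of 10 RPKM or more was reached by 24 members (48.98%), where 21.8% of all symbols did. Of the 49 members, 43 lay at or above the median of all symbols and 10 were above the 90th percentile. MRPL35 is counted at 1 RPKM, at 10 RPKM and above that median through 1 short entry, described below. Without that entry it would stand at 0.771 RPKM, and 23 members would reach 10 RPKM. The levels were far from even, although nearly all these proteins are thought to be present once in each ribosome. The highest, MRPL57 at 200.7 RPKM, was 367 times the lowest, MRPS9 at 0.546 RPKM. Between these ends, 27 members fell in the range from 5 to 20 RPKM. No member lay between 30 and 40 RPKM, and 7 stood at 40 RPKM or more.

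**Figure D1:**
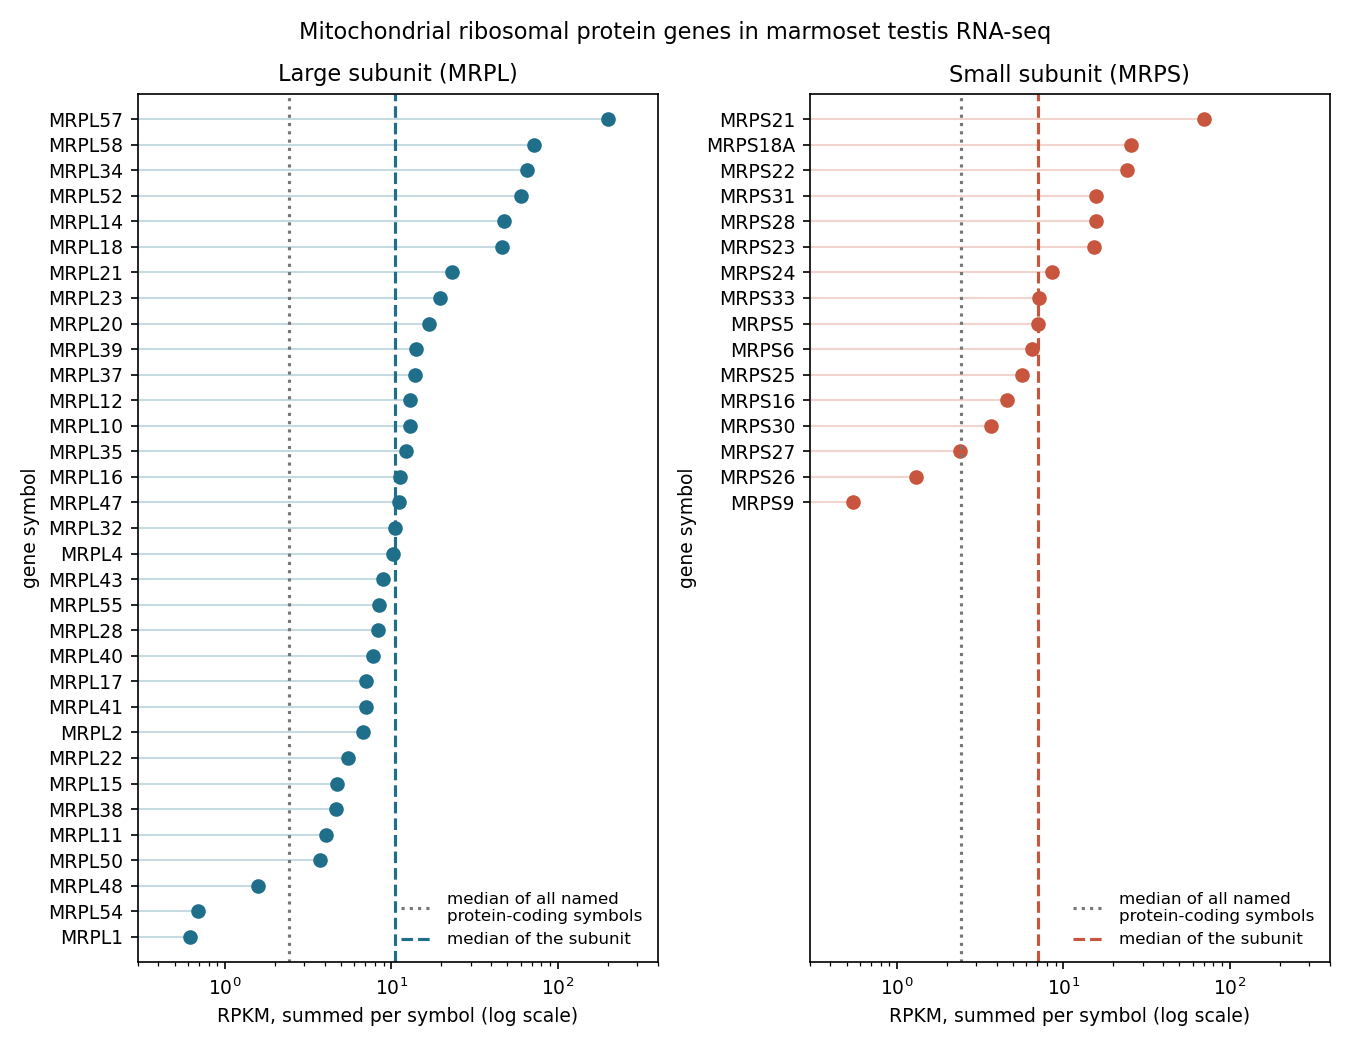
RPKM summed per symbol, on a log axis, for each MRPL symbol (left, n = 33) and each MRPS symbol (right, n = 16), ordered by level. The dashed line is the subunit's median (10.6 RPKM for MRPL, 7.11 RPKM for MRPS) and the dotted line the median of all named protein-coding symbols (2.44 RPKM). Each point is 1 value from 1 column, so there are no error bars. MRPS21 stands apart at the top of the small subunit and 6 genes at the top of the large one, and each subunit has 3 genes below the dotted line. MRPL35 is drawn at its summed level of 12.3 RPKM and would also lie below that line without its entry on chromosome 12.

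Large-subunit genes had a higher median than small-subunit genes, with a wide overlap. The median was 10.6 RPKM for the 33 MRPL symbols and 7.11 RPKM for the 16 MRPS symbols, a ratio of 1.49. The mean of log2(RPKM + 1) was 3.65 for MRPL and 3.18 for MRPS, a difference of 0.47 beside standard deviations across genes of 1.53 and 1.41. The difference between the subunits was thus smaller than the spread among the genes of either. A level of 10 RPKM or more was reached by 18 of 33 MRPL symbols and by 6 of 16 MRPS symbols. Of the MRPS symbols 6 lay at or above the MRPL median, and of the MRPL symbols 22 lay at or above the MRPS median. At the upper end, 6 MRPL symbols and 1 MRPS symbol were at 40 RPKM or more, and 2 MRPL symbols exceeded the highest MRPS symbol. The summed level was 742 RPKM over the 33 MRPL symbols and 214 RPKM over the 16 MRPS symbols, so the sums do not compare levels per gene. MRPL57 alone held 27.04% of the MRPL sum.

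The large subunit was led by proteins of quite different kinds. MRPL57, also called mL63, is a small protein found in mitochondrial ribosomes alone, and its 200.7 RPKM placed it as number 64 of all 12177 symbols. It alone made up 27.04% of the summed MRPL level. Its entry spans 320 bases of chromosome 5, from 134529785 to 134530104 on the plus strand in the table's coordinates. Whether the short length of this entry affects its level was not tested. MRPL58, known also as ICT1, is related to release factors and can free stalled ribosomes by cutting the peptide from its tRNA, and it stood at 72.7 RPKM. MRPL34, a short protein kept from the bacterial ribosome, stood at 65.3 RPKM. MRPL52, with no counterpart in the bacterial ribosome, followed at 60.5 RPKM. MRPL14, which sits at the face that meets the small subunit, had 47.4 RPKM. MRPL18, a protein of the central protuberance, had 46.1 RPKM. These 6 were set apart from the next large-subunit gene, MRPL21 at 23.3 RPKM.

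The low end of the large subunit held genes below the median of all symbols. MRPL1, which forms the mobile stalk where spent tRNAs leave, stood at 0.622 RPKM. MRPL54, a protein without a counterpart in the bacterial ribosome, stood at 0.690 RPKM. MRPL48, of the central protuberance, had 1.59 RPKM. These 3 were apart from the next genes upwards, MRPL50 at 3.75 RPKM, MRPL11 at 4.05 RPKM and MRPL38 at 4.67 RPKM. MRPL35, at 12.3 RPKM by its summed level, would join the low end at 0.771 RPKM without its entry on chromosome 12, described below. Depth is unknown, so the precision of values under 1 RPKM cannot be stated.

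Neighbouring parts of the large subunit were also looked at, by groupings made with the values known. The stalk that recruits translation factors consists of MRPL10 and MRPL11 at its base and of several copies of MRPL12. MRPL12, the protein needed in most copies, had 13.04 RPKM from 1 entry. MRPL10 had 12.9 RPKM as the sum of 2 entries, the higher of which had 6.48 RPKM. The level of MRPL10 beside MRPL12 therefore depends on the summing, and both were above MRPL11 either way. Around the opening where the new peptide leaves, 3 of 5 listed genes had an entry. Of these, MRPL23 had 19.7 RPKM, MRPL47 11.1 RPKM and MRPL22 5.48 RPKM. Among genes with an entry, the central protuberance was the most uneven of the 3 parts. Its 6 members with an entry, of 8 listed, ran from MRPL48 at 1.59 RPKM to MRPL58 at 72.7 RPKM, with a median of 8.15 RPKM.

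Most other large-subunit genes lay close to one another. MRPL20 had 16.9 RPKM, MRPL39 14.1 RPKM and MRPL37 13.8 RPKM, all above the subunit's median. MRPL16, MRPL32 and MRPL4, each kept from the bacterial ribosome, were close together, at 11.3, 10.6 and 10.2 RPKM. Below 10 RPKM came MRPL43, MRPL55, MRPL28 and MRPL40, at 8.94, 8.51, 8.38 and 7.79 RPKM. MRPL17 and MRPL41 were nearly equal, at 7.07 and 7.03 RPKM. MRPL2, whose bacterial counterpart lies near the catalytic centre, had 6.81 RPKM, and MRPL15 had 4.70 RPKM.

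The small subunit had a single gene well above the rest. MRPS21, a short protein kept from the bacterial ribosome, stood at 70.2 RPKM, number 253 of all symbols. It was followed by MRPS18A at 25.4 RPKM and by MRPS22, a protein specific to mitochondria, at 24.3 RPKM. MRPS31, MRPS28 and MRPS23 formed a close group at 15.8, 15.7 and 15.3 RPKM. No MRPS symbol fell between MRPS23 and MRPS24, which had 8.52 RPKM.

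The lowest small-subunit genes were of different kinds as well. MRPS9, whose bacterial counterpart reaches with its tail to the tRNA that carries the peptide, was the lowest member at 0.546 RPKM. MRPS26 stood at 1.31 RPKM and MRPS27, a pentatricopeptide repeat protein of the kind that binds RNA, at 2.41 RPKM. These 3 were below the median of all symbols. MRPS30 had 3.68 RPKM and MRPS16, kept from bacteria, 4.60 RPKM. Near the median of the subunit were MRPS33 at 7.18 RPKM, MRPS5 at 7.04 RPKM, MRPS6 at 6.48 RPKM and MRPS25 at 5.63 RPKM.

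Symbols do not always name the right subunit. In structures of the mammalian mitochondrial ribosome MRPS30 and MRPS18A are parts of the large subunit, where they are called mL65 and mL66. MRPS36 is now assigned to a metabolic enzyme complex, and it had no entry among those analysed. Several true subunits carry other symbols. Of these, GADD45GIP1 of the large subunit had 5.12 RPKM. DAP3, a GTP-binding protein of the small subunit first described in cell death, had 18.7 RPKM. AURKAIP1 had 18.0 RPKM, PTCD3, a pentatricopeptide repeat protein, 8.26 RPKM and CHCHD1 4.02 RPKM, all 3 of the small subunit. With every gene placed by structure, the median was 10.4 RPKM for 36 large-subunit genes and 7.72 RPKM for 18 small-subunit genes, a ratio of 1.34. The order of the subunits was therefore the same by structure as by symbol.

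Members were also divided by ancestry as systematic names give it, into proteins with a counterpart in the bacterial ribosome and proteins without one. In these names u or b marks a counterpart and m marks none. The name of a protein that changed subunit need not settle its descent. By its name mL66, MRPS18A was counted as without a counterpart. The median was 10.4 RPKM for the 28 members with a counterpart and 7.79 RPKM for the 21 without, but this order did not hold on every scale. The mean of log2(RPKM + 1) was 3.54 with and 3.45 without a counterpart, a difference of 0.09. This difference was -0.011 without the MRPL35 entry on chromosome 12 and 0.30 without MRPL57. Within the large subunit the medians were 11.1 RPKM with and 8.36 RPKM without a counterpart, while the means of log2(RPKM + 1) were nearly equal at 3.65 and 3.66. Within the small subunit the medians were 7.04 RPKM with and 7.18 RPKM without, with MRPS18A among those without. The order of these close medians depends on MRPS18A, at 25.4 RPKM. Counted as with a counterpart, it would place that median between MRPS5 at 7.04 RPKM and MRPS24 at 8.52 RPKM. The median without a counterpart would then lie between MRPS25 at 5.63 RPKM and MRPS33 at 7.18 RPKM, which turns the order. The proteins specific to mitochondria had the wider spread in the large subunit, with a standard deviation of log2(RPKM + 1) of 2.04, against 1.20 for those with a counterpart, and in the small subunit it was the narrower, at 1.28 against 1.67. Both classes thus held very high and very low genes.

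**Figure D2:**
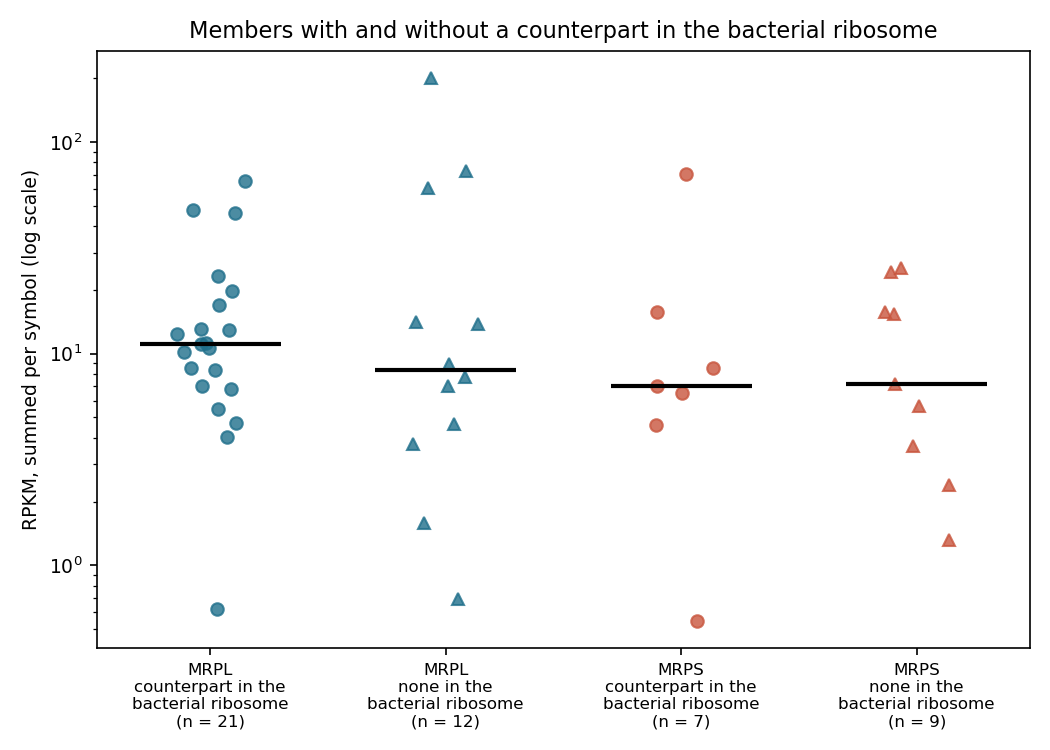
RPKM summed per symbol, on a log axis, for members with a counterpart in the bacterial ribosome (circles) and with none (triangles). Ancestry is as the systematic name gives it and subunit as the symbol gives it. Horizontal bars are medians over genes (11.1 and 8.36 RPKM for MRPL, 7.04 and 7.18 RPKM for MRPS). The 4 sets overlap over most of their range.

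Most members rested on 1 transcript entry, and in 5 of 49 the level was a sum. The largest imbalance was in MRPL35, a protein kept from the bacterial ribosome. Its 3 entries carry the same gene name in the table but lie on 2 chromosomes. The entry on chromosome 12, from 78197348 to 78198050 on the plus strand, spans 703 bases and had 11.6 RPKM. The entries on chromosome 14, on the minus strand, span 8853 and 12532 bases and had 0.348 and 0.423 RPKM. The short entry thus had 15.01 times the level of the other two together and made up 93.8% of the sum of 12.3 RPKM. In RefSeq the gene MRPL35 has the neighbours of the chromosome 14 entries, which shared 12 of their nearest named genes with it, and the chromosome 12 entry shared none. All entries of the other 48 members shared at least 1 neighbour with RefSeq. How reads that match both places were counted is not given in the sources used here, so the split between them is uncertain. Whether the short entry is the gene itself or a copy of it was not tested, and the level of MRPL35 depends on that. Without the chromosome 12 entry MRPL35 would stand at 0.771 RPKM.

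In the other 4 members with more than 1 entry all entries lay at 1 place. MRPL10 was split almost evenly, into 6.48 and 6.45 RPKM. MRPL47 had 9.70 and 1.39 RPKM, MRPS31 had 12.3 and 3.42 RPKM, and MRPL48 had 1.40 and 0.184 RPKM. In these 3 a single transcript carried most of the level.

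**Figure D3:**
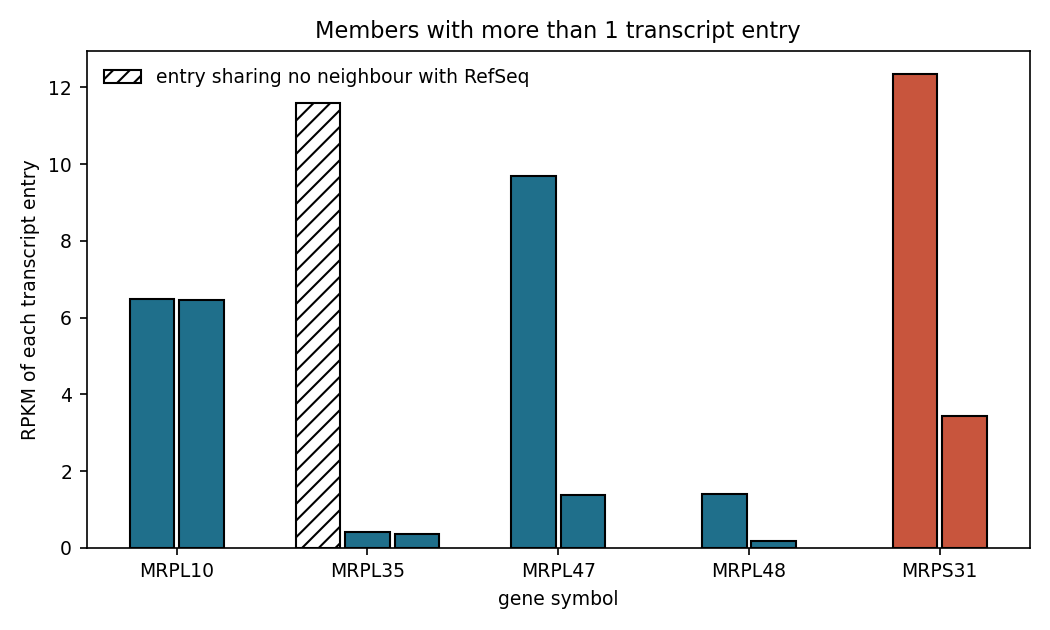
RPKM of each transcript entry for the 5 members with more than 1, each bar being 1 entry. The hatched bar is the 703-base MRPL35 entry on chromosome 12, at 11.6 RPKM, beside the 2 entries on chromosome 14 at 0.423 and 0.348 RPKM.

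The genes were spread over the genome. Chromosome 5 held 8 members (16.3%), where 9.05% of all symbols lay on it, and these ran from MRPS26 at 1.31 RPKM to MRPL57 at 200.7 RPKM. Chromosome 11 held 6 members (12.2%), where 6.18% of all symbols lay on it, and 18 chromosomes in all held an entry of a member. Members occupied shorter stretches than most genes, with a median span of 8797 bases against 23510 bases over all symbols. Spearman's rho between the longest span and RPKM was -0.05 across the 49 members and 0.07 across all 12177 symbols, where genes are not independent and share 1 library. The median of the members was highest in the middle range of spans. Those of 5000 to under 20000 bases had a median of 13.4 RPKM and 15 of 22 reached 10 RPKM, whereas the medians were 7.79 RPKM for 13 shorter and 7.71 RPKM for 14 longer members. MRPL35 is in the middle range by its longest span, on chromosome 14, but reached 10 RPKM through its 703-base entry on chromosome 12. Over all symbols the median was 1.28 RPKM for spans under 5000 bases, 2.13 RPKM in the middle range and 2.93 RPKM above it.

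Some members start close to a gene on the other strand. An opposite-strand start within 1000 bases was found for 7 of 49 members (14.3%), where 5.62% of all symbols had one. They were 6 of the 33 MRPL symbols and 1 of the 16 MRPS symbols. MRPL21 starts 130 bases from IGHMBP2, a helicase gene, and both had similar levels, 23.3 and 23.1 RPKM. MRPS27 starts 147 bases from PTCD2, a pentatricopeptide repeat gene, and these too were level, at 2.41 and 2.35 RPKM. The pairs were not alike throughout. MRPL40 had 7.79 RPKM and HIRA, a histone chaperone gene, 1.62 RPKM as the sum of its entries. The HIRA entry that starts 206 bases from MRPL40 had 0.697 RPKM. MRPL50 had 3.75 RPKM and the zinc finger gene ZNF189 7.06 RPKM. MRPL54 and APBA3 were both low, at 0.690 and 0.329 RPKM. For MRPL10 and MRPL2 the partner has no standard gene symbol in the table. The table lists genes above 0 alone, so partners at 0 were not counted for members or for other genes.

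Overlapping genes limit a few of these levels. The span of 7 members (14.3%) overlapped an entry of another gene, where 9.62% of all symbols did so. In 6 of the 7 all overlapping genes were on the opposite strand, as with MRPL41 and NELF, MRPL40 and HIRA or MRPL20 and PUSL1. In these named pairs the overlap took in the whole span of the member, whereas MRPS18A shared 25 of its 20324 bases with RSPH9. The library protocol is directional per the labels, but whether strand was used in counting is not given in the sources used here. MRPL28 was the exception, since its entry spans 84415 bases and shares 58726 of them with a gene on its own strand at 2.41 RPKM. MRPL55 has the longest span of any member, 199047 bases, which covers GUK1 and IBA57 in part or whole. The levels of these members are uncertain to that extent.

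Other genes of mitochondrial translation gave a background for the ribosomal proteins. Factors that assemble the mitochondrial ribosome had a median of 5.80 RPKM over 15 genes with an entry, of 26 listed, and 6 reached 10 RPKM. RBFA, which matures the small-subunit RNA, was the highest at 51.9 RPKM, followed by the GTPase NOA1 at 31.4 RPKM. MRM1, a methyltransferase of the large-subunit RNA, was the lowest at 0.561 RPKM. As among the ribosomal proteins, single genes of this list thus stood far above its median.

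Translation factors had a median of 4.56 RPKM over 10 genes with an entry, of 13 listed, and 2 reached 10 RPKM. The initiation factor MTIF3 was the highest at 81.4 RPKM, above every mitochondrial ribosomal protein gene analysed but MRPL57. The other initiation factor, MTIF2, had 3.10 RPKM. TUFM, the elongation factor that brings charged tRNAs, had 22.9 RPKM, and the lowest was MTRFR, a rescue factor, at 1.40 RPKM. The mitochondrial aminoacyl-tRNA synthetases, which charge those tRNAs, had a narrower range, with a median of 4.89 RPKM over 7 of 17. They ran from NARS2 at 1.33 RPKM to CARS2 at 6.73 RPKM and IARS2 at 11.2 RPKM.

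Genes that transcribe mitochondrial DNA or act on its RNA had a median of 8.89 RPKM over 13 of 14, close to that of the ribosomal proteins. TFB2M, which opens the promoter for the mitochondrial RNA polymerase, was the highest at 48.4 RPKM, and SLIRP, which stabilises mitochondrial mRNAs, had 22.7 RPKM. The polymerase POLRMT itself had 10.1 RPKM. PRORP, which cuts tRNAs from their precursors, was the lowest at 1.78 RPKM.

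The ribosomal proteins of mitochondria were set beside those of the cytosol and beside the nuclear subunits of oxidative phosphorylation. Each set was picked by gene symbol, so genes under other names were left out. The 49 members had a median of 8.94 RPKM, the 44 cytosolic ribosomal protein genes found in this way 12.97 RPKM and the 48 oxidative phosphorylation genes 22.8 RPKM. Relative to the oxidative phosphorylation genes the median of the members was 0.393 times as high. A level of 10 RPKM or more was found for 24 of 49 members, for 24 of 44 cytosolic ribosomal protein genes and for 37 of 48 oxidative phosphorylation genes. The members varied less among themselves than the cytosolic ribosomal protein genes, with a standard deviation of log2(RPKM + 1) of 1.49 against 2.50, and about as much as the oxidative phosphorylation genes, at 1.55. The cytosolic set runs from RPL27A at 0.0459 RPKM to RPS29 at 945 RPKM, and its genes have many near-identical copies in mammalian genomes among which reads may be split. The part of such copies in the spread was not tested.

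**Figure D4:**
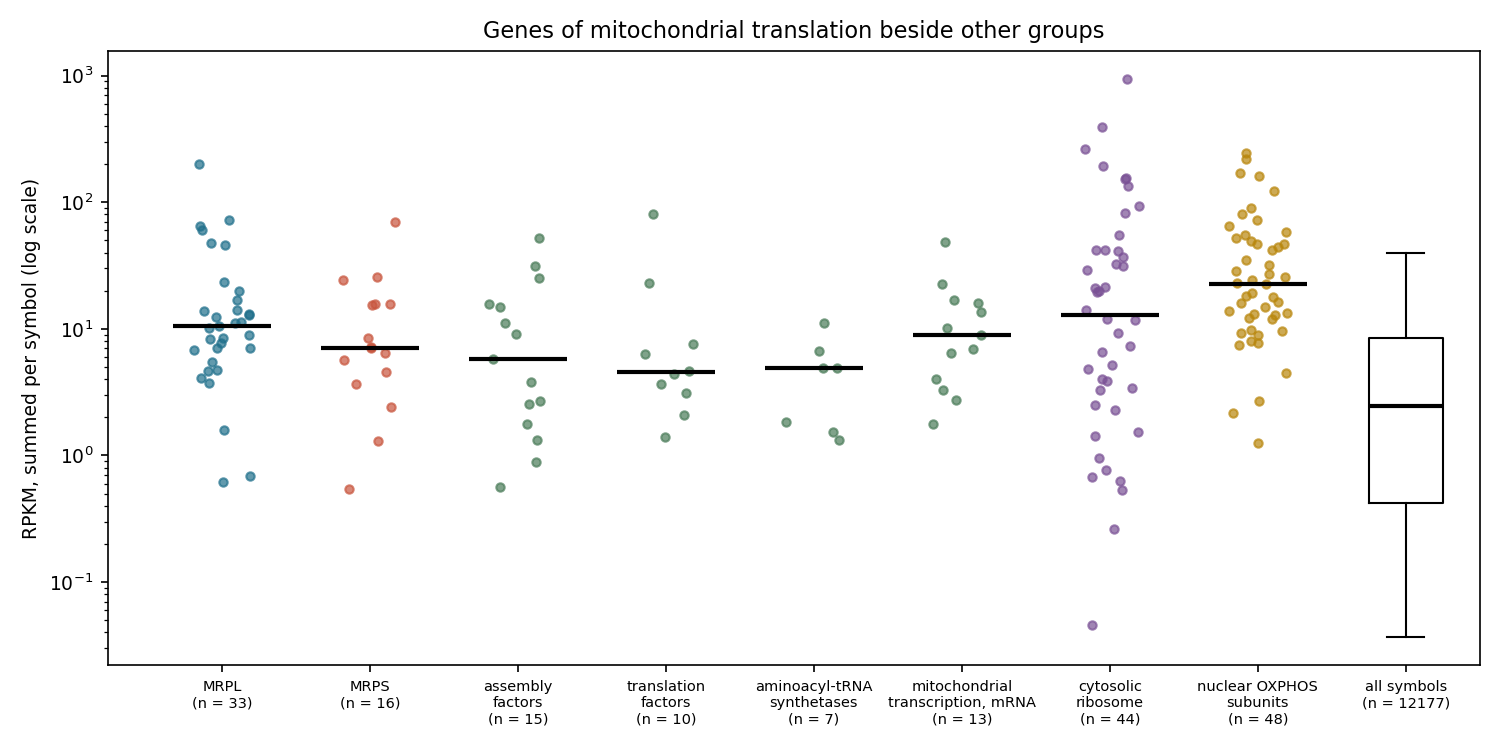
RPKM summed per symbol, on a log axis, for MRPL and MRPS symbols, 4 lists of other genes of mitochondrial gene expression, cytosolic ribosomal proteins, nuclear subunits of oxidative phosphorylation (OXPHOS) and all named protein-coding symbols. Each point is 1 gene and each horizontal bar a median over genes. The box for all symbols shows the quartiles with whiskers at the 5th and 95th percentiles. MRPL has the highest median among the sets of mitochondrial translation (10.6 RPKM), below that of the OXPHOS genes (22.8 RPKM).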

How the data were processed

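Testis RNA was sequenced after a directional mRNA protocol, per the labels. Bowtie, TopHat and Cufflinks appear in the submitters' processing notes, with neither version nor role. The deposited values are RPKM per transcript, computed by the authors, in 1 column for 2 labelled replicates. The sources used here do not give how these were combined, the genome build or the depth, and coordinates are those of the table.

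Protein-coding entries (16739 of 18365) were used. LOC names were replaced by the symbol of that gene number in RefSeq (assembly calJac240_pri), which served for names and neighbours only. This resolved 6165 entries and left 934, and 1303 had no name. It named 37 of the 49 members. RPKM was summed per symbol. Neighbours are the 10 nearest named genes on each side. Cytosolic ribosomal proteins were RPL, RPS, RPLP and RPSA symbols without RPS6K kinases and RPS19BP1. Oxidative phosphorylation genes were NDUFA, NDUFB, NDUFC, NDUFS, NDUFV, SDHA to SDHD, UQCR, CYC1, COX4 to COX8 and ATP5 symbols. ATP5IF1, ATP5S and ATP5SL were left out of the latter set. With 1 value per gene no test was made. A pseudocount of 1 was used for log2 values. Genes described first were to be the 6 highest and 6 lowest of each subunit, members with several entries or under 1 RPKM, MRPS30, MRPS18A and MRPS36, and the 2 highest and the lowest of each list, and the remaining members and listed genes were added after their values were seen. Members and lists were chosen with earlier results of these data known. The summing was tested on simulated data. Alternatives are in the closing section. Tables were handled in pandas 2.3.3 with numpy 2.4.6 under Python 3.11.15. Figures were drawn with matplotlib 3.10.9, and rank correlations came from scipy 1.17.1.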

Additional observations from a re-analysis of the deposited data

How the results depend on the processing

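The MRPL median stayed above the MRPS median, and the difference of the mean log2 values stayed positive, under each alternative tried, whereas the order by ancestry did not hold. With the highest entry of each symbol in place of the sum, the median of the members was 8.52 RPKM, the large to small ratio 1.36 and the log2 difference 0.45, and by ancestry (with over without a counterpart in the bacterial ribosome) the ratio was 1.17 and the log2 difference 0.073. With the 12 members named by symbol in the table, these were 6.76 RPKM, 2.50, 1.26, 1.50 and 0.0057, and 4 members reached 10 RPKM. With members at 1 RPKM or more they were 10.4 RPKM, 1.54, 0.49, 1.30 and 0.18. With entries spanning over 1000 bases they were 8.52 RPKM, 1.43, 0.27, 1.20 and 0.19. Pseudocounts of 0.1 and 0.01 gave log2 differences of 0.54 and 0.55 between subunits and of 0.13 in both cases by ancestry. By structure, the subunits had a ratio of 1.34 and a log2 difference of 0.39. By ancestry, the log2 difference was -0.013 within the large subunit, and within the small subunit the ratio was 0.981 and the log2 difference 0.053. In each case MRPS18A counted as without a counterpart. Counting it as with one would turn the order of the small-subunit medians, and the other values were not recomputed that way.

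The remaining alternatives were chosen after seeing the data. Without MRPL57 the values were 8.73 RPKM, 1.46, 0.34, 1.39 and 0.30. Without the MRPL35 entry on chromosome 12 they were 8.52 RPKM, 1.43, 0.38, 1.20 and -0.011, the last turning the direction. Without members that overlap another gene they were 9.57 RPKM, 1.60, 0.63, 1.29 and 0.12. The cause of these changes was not tested. Detection limits of 0.1 and 5 RPKM left 49 and 37 members. No paired analysis was possible because the replicates were deposited as 1 column, which also means that no replicate could be left out. Reads behind each value are unknown, so low levels have no stated precision.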
